A study of Mus musculus with 12 samples.

Results

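The 46 genes described here are the protein-coding mouse genes whose GENCODE M21 symbol starts with Nduf, out of 54356 genes in the quantified annotation. They comprise 36 subunits of respiratory complex I, 8 assembly factors with symbols in Ndufaf, and the pair Ndufa4 and Ndufa4l2, whose symbols are historical. The rule uses the symbol and no measured value, although the set was proposed with earlier results of these data known. All 46 had enough reads to be tested. The 3 genes taken as markers of the set, Ndufs1, Ndufv1 and Ndufaf1, were detected in all 12 libraries, at 433 to 582, 600 to 923 and 38.8 to 63.5 CPM (reads scaled to a common library size).

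Complex I, NADH:ubiquinone oxidoreductase, is the entry point of electrons from NADH into the mitochondrial respiratory chain. A peripheral arm holds an N module, which oxidises NADH, and a Q module, which passes the electrons to ubiquinone, and a membrane arm with a proximal and a distal part pumps protons. The core subunits are encoded partly in the nucleus and partly in mitochondrial DNA, accessory subunits surround them, and assembly factors help to build the complex without remaining in it. In brown fat the respiratory chain feeds a proton gradient that uncoupling protein 1 dissipates as heat.

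The tissue was interscapular brown adipose tissue of wild type C57BL/6N male mice aged 20 weeks, 6 labelled cold (mouse numbers 4, 7, 11, 12, 15 and 16) and 6 labelled ctrl (2, 5, 6, 9, 10 and 14). The treatment text, 24 h at 4 °C in single housing, is attached to all 12 animals and is read here as meant for those labelled cold. The colony was kept at 22 to 24 °C, and how ctrl animals spent the last day is not stated separately, so single housing and cold cannot be told apart if ctrl mice were grouped. For the cold group the design text states n = 3, but 6 samples carry that label. The RNA extraction text speaks of eWAT, a white fat depot, although every tissue label says brown fat, and the sample labels were used throughout. Poly(A) RNA was read in strand-specific 50 nt pairs, and each animal is its own library with 16.99 to 31.4 M estimated reads in cold and 16.0 to 26.8 M in ctrl. All 8 brown adipocyte markers were detected, with Ucp1 at 9222 to 11265 CPM in cold and 6549 to 11131 CPM in ctrl. The 15 skeletal muscle markers were all detected too, summing to 240 to 6414 CPM in cold and 201 to 1912 CPM in ctrl, with none of them at 0 in any library.

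Reads were summed to genes, normalised with TMM factors, and cold was set against ctrl in edgeR's quasi-likelihood framework, with p-values adjusted by Benjamini and Hochberg's method over all 13876 genes tested and a threshold of 0.05. Of these genes 31.6% were called, 16.2% (2246) higher and 15.4% (2134) lower. With library totals in place of TMM the split was 2895 higher and 1409 lower. In bulk tissue, fewer cells of a type and less RNA per cell cannot be told apart.

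After 24 h of cold, 2 Nduf genes rose and 5 fell, while 39 were not called. The shares, 4.35% higher and 10.9% lower, stand beside the 16.2% and 15.4% of all genes given above. Both genes that rose were assembly factors, Ndufaf4 and Ndufaf1. Those that fell included the subunits Ndufa7, Ndufb8 and Ndufs3 and the related gene Ndufa4l2. The fitted log2 fold change was below 0 for 34 of the 46, with a median of -0.11, against a median of -0.007 over all genes tested. The groups' CPM ranges did not overlap for 1 of the 46 genes, Ndufaf4, against 16.3% of all genes tested.

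The 250 bases before and 50 after the transcription start, from RefSeq on GRCm38.p6, are shown for both genes that rose and for 2 of the genes that fell, Ndufs3 and Ndufb8, chosen because they carry matches to the letters searched. Ndufa7, with the lowest log2 fold change of the set, has 2 windows and no match in either. Capitals mark matches, on either strand, to short letter strings of factors known for nuclear respiratory genes: CCGGAAG for the ETS factor GABPA, AAGGTCA for the estrogen-related receptors, GCATGCGC for NRF1 and AAGATGGC for YY1. Each sequence is read along its gene's strand, 5′ to 3′. In Ndufaf4 (chr4:24897833-24898132, plus strand) 3 NRF1 matches lie in 2 places, since a pair of them overlap on opposite strands. Ndufaf1 (chr2:119662785-119663084, minus strand) has 1 ETS match, Ndufs3 (chr2:90904672-90904971, minus strand) has 2, and Ndufb8 (chr19:44555393-44555692, minus strand) has 1 YY1 match.
Ndufaf4: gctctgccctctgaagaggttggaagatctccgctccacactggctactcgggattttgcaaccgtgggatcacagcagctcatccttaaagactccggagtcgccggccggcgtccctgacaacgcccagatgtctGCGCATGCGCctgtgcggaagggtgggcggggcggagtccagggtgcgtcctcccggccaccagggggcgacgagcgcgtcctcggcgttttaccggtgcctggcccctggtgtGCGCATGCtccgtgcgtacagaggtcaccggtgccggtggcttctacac
Ndufaf1: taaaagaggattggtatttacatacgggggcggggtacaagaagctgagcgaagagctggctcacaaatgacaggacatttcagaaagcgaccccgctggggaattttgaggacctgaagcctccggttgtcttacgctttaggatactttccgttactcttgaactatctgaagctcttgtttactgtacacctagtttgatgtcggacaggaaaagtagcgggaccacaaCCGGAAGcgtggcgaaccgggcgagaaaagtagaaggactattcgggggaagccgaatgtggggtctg
Ndufs3: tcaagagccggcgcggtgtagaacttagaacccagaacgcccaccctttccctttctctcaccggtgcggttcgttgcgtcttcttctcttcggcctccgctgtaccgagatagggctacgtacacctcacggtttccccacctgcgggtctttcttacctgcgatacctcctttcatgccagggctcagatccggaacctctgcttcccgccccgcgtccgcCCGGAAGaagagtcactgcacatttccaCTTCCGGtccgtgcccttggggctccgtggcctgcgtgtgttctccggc
Ndufb8: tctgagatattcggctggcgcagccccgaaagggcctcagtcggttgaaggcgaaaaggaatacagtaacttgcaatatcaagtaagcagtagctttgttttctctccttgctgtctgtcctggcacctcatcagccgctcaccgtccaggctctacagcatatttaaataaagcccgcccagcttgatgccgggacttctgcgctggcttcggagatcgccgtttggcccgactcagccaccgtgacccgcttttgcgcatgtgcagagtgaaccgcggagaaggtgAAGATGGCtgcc

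Promoters were found for 40 of the 46 genes, 42 windows in all. The ETS letters occurred in 6 of the 42 (14.3%), against 8.86% of 32851 promoters of the same length. The NRF1 letters occurred in 5 (11.9%, against 2.71%), the YY1 letters in 8 (19.0%, against 2.75%) and the estrogen-related receptor letters in 3 (7.14%, against 4.72%). The NRF1 windows were those of Ndufa11, Ndufa6, Ndufa8, Ndufaf4 and Ndufaf5, and among these Ndufaf4 alone was called. The YY1 windows were those of Ndufa3, Ndufa9, Ndufaf8, Ndufb8, Ndufc1, Ndufs4, Ndufs6 and Ndufs7, of which Ndufb8 alone was called. The ETS windows were those of Ndufaf1, Ndufaf8, Ndufb6, Ndufb7, Ndufs3 and Ndufs8, of which Ndufaf1 rose and Ndufs3 fell. Windows with the estrogen-related receptor letters were those of Ndufb2, Ndufb4 and Ndufs5, and none of these genes was called. These matches describe letters in the window and do not show binding.

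Levels were compared between genes per length, as CPM per kb of transcript. Subunits ranged from 74.5 to 775 CPM per kb in cold and from 70.6 to 982 in ctrl, with medians of 312 and 328. Assembly factors ranged from 12.9 to 39.02 CPM per kb in cold and from 14.0 to 35.7 in ctrl, with medians of 29.7 and 25.6. Every assembly factor thus lay below every subunit in both groups. The ratio of the medians, subunits over assembly factors, was 10.5 in cold and 12.8 in ctrl. The highest of all was Ndufa4, at 926 ± 220 CPM per kb in cold and 1055 ± 159 in ctrl (SD, n = 6 each), followed in ctrl by Ndufb8 and Ndufb9. The lowest subunit was Ndufb4, and the lowest gene of the set was Ndufa4l2 at 8.54 ± 0.82 CPM per kb in cold and 10.6 ± 1.33 in ctrl. In 35 of the 45 neighbouring pairs of this order the ctrl means differed by less than the larger SD. Reads of Ndufb4 may be split with its pseudogene Ndufb4c, which was assigned 132 CPM in cold and 138 CPM in ctrl, so the level of Ndufb4 is uncertain.

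**Figure D1:**
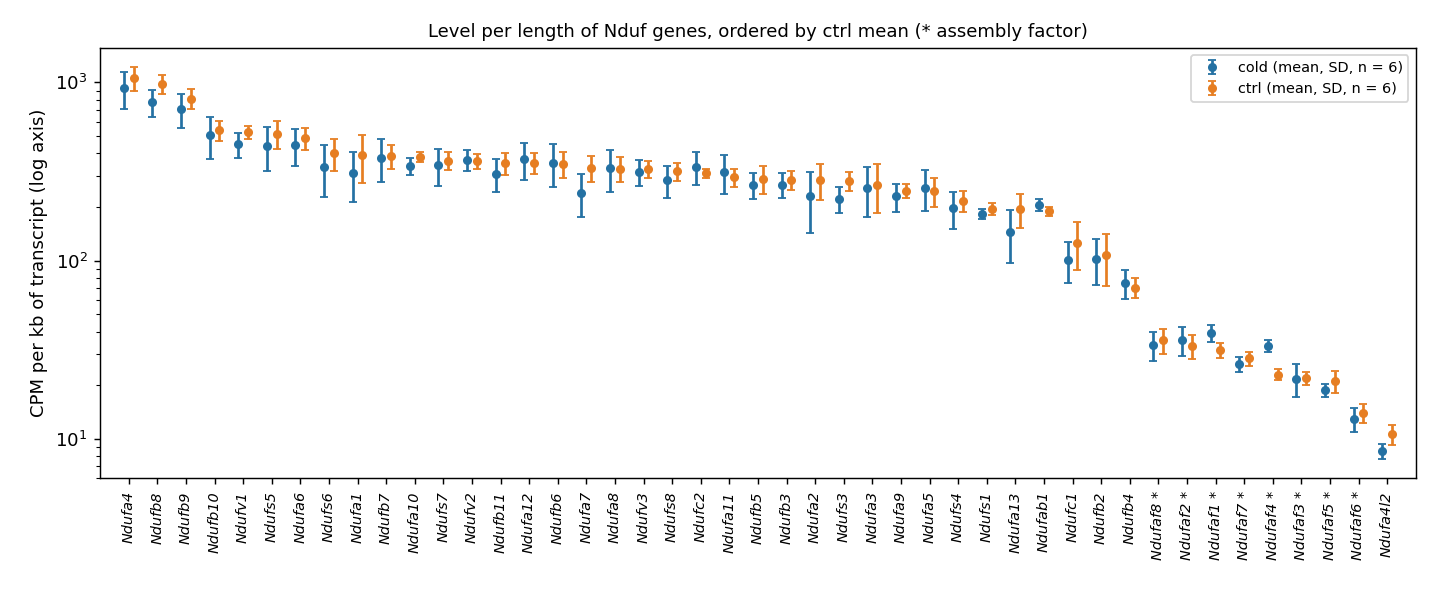
Level of Nduf genes in CPM per kb of transcript (log axis), as mean and SD of 6 cold (blue) and 6 ctrl (orange) libraries, ordered by ctrl mean. The 8 assembly factors, marked with an asterisk, lie between 12.9 and 39.02 CPM per kb, below the subunits, and Ndufa4l2 is lowest at 8.54 in cold and 10.6 in ctrl.

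Of the 46 genes, the assembly factor Ndufaf4 had the smallest adjusted p. Ndufaf4 (chr4:24898083-24905001, plus strand), which works with Ndufaf3 in building the Q module, had 83.3, 91.3 and 105 CPM as lowest, median and highest of 6 cold libraries, against 57.9, 64.2 and 70.6 CPM in ctrl. The lowest cold library was above the highest ctrl library. The log2 fold change was 0.53 ± 0.07 (SE), with an edgeR adjusted p of 3.2e-05. Across 23 alternative fits it ran from 0.50 to 0.62 and passed the threshold in each.

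Ndufaf1 (chr2:119655446-119662827, minus strand), a chaperone of the complex that assembles the membrane arm with Acad9, Ecsit, Tmem126b and Timmdc1, had 45.99, 53.8 and 63.5 CPM as lowest, median and highest in cold, against 38.8, 44.4 and 47.9 CPM in ctrl. One cold library, cold 15 at 45.99 CPM, lay inside the ctrl range, and the other 5 lay above it. The log2 fold change was 0.32 ± 0.09, with an edgeR adjusted p of 0.0101. It passed in 23 of 23 alternatives at 0.27 to 0.41. With the animals split by mouse number it was 0.46 in numbers 2 to 7 (adjusted p = 0.0873, edgeR; 2 cold and 3 ctrl) and 0.22 in numbers 9 to 16 (adjusted p = 0.132, edgeR; 4 cold and 3 ctrl), so neither subset passed alone.

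The other 6 assembly factors were not called, and their ranges overlapped. Ndufaf2, which takes part in adding the N module, averaged 24.3 ± 4.43 CPM in cold and 22.6 ± 3.54 CPM in ctrl (SD, n = 6 each; log2 fold change 0.10). Ndufaf3, the partner of Ndufaf4, averaged 28.2 ± 5.89 CPM in cold and 28.6 ± 2.46 CPM in ctrl, with a log2 fold change of -0.01 whose interval ran from -0.24 to 0.21 and whose sign changed with library totals. The partners in Q module assembly thus differed in their own values: Ndufaf4 was called and Ndufaf3 was not, and the difference between them was not tested. Ndufaf5, which hydroxylates Ndufs7, averaged 21.8 ± 1.83 CPM in cold and 24.5 ± 3.50 CPM in ctrl (-0.17), and Ndufaf8, its stabilising partner, averaged 20.7 ± 3.89 CPM in cold and 21.9 ± 3.54 CPM in ctrl (-0.08; positive with library totals). Ndufaf7, a methyltransferase, averaged 41.5 ± 3.84 CPM in cold and 44.7 ± 4.09 CPM in ctrl (-0.11). Ndufaf6, needed early for the Q module, averaged 12.5 ± 1.98 CPM in cold and 13.6 ± 1.66 CPM in ctrl (-0.11). The median log2 fold change of the 8 factors was -0.05 with TMM and 0.04 with library totals, so the family as a whole had no stable direction.

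**Figure D2:**
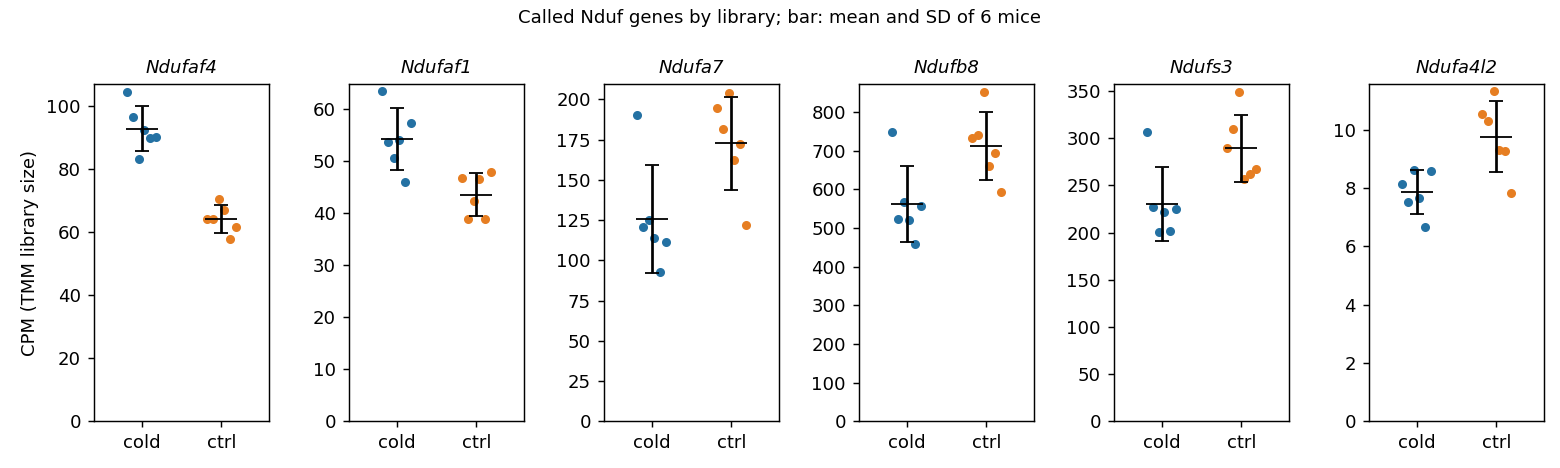
CPM of called Nduf genes in each library, cold left of ctrl, points for the 6 libraries of each group with the mean and SD. Ndufaf4 is the gene whose groups separate completely, with 83.3 to 105 CPM in cold against 57.9 to 70.6 CPM in ctrl, while in the genes that fell the groups overlap.

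The nuclear core subunits include those that carry the flavin and iron-sulfur clusters. None of the nuclear core subunits rose (edgeR; none at an unadjusted p under 0.05, by DESeq2 or by limma-voom), and their median log2 fold change was -0.17. Ndufs3 (chr2:90894634-90904827, minus strand), a Q module subunit, had 201, 223 and 307 CPM as lowest, median and highest in cold, against 257, 279 and 349 CPM in ctrl. In this gene 5 of the 6 cold libraries lay below every ctrl library, and cold 4 lay within the ctrl range. The log2 fold change was -0.33 ± 0.11 (edgeR adjusted p = 0.0310).

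Further core subunits were not called. Ndufv1, which binds FMN and NADH, averaged 701 ± 111 CPM in cold and 819 ± 70.9 CPM in ctrl (SD, n = 6 each; log2 fold change -0.22, edgeR adjusted p = 0.101). Ndufs8, an iron-sulfur subunit of the Q module, averaged 235 ± 48.8 CPM in cold and 264 ± 29.3 CPM in ctrl (-0.17), and Ndufs7, which carries the last cluster before ubiquinone, averaged 262 ± 61.0 CPM in cold and 279 ± 31.9 CPM in ctrl (-0.09). All 3 had cold 4 as their highest cold library. Ndufs1, the largest N module subunit, averaged 472 ± 31.2 CPM in cold and 506 ± 41.4 CPM in ctrl (-0.10, interval -0.25 to 0.05). Ndufv2, an iron-sulfur subunit beside Ndufv1, averaged 440 ± 61.6 CPM in cold and 431 ± 41.4 CPM in ctrl (0.03, interval -0.16 to 0.22).

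Outside the Q module, 1 of 10 N module genes fell (median log2 fold change -0.13), beside 15.4% called lower of all genes tested. In the proximal membrane arm 0 of 9 fell (-0.18; 1 at an unadjusted p under 0.05, and 0 by DESeq2 and by limma-voom), and in the distal arm 1 of 11 (-0.10). The N module gene was Ndufa7 (chr17:33824572-33838317, plus strand), an accessory subunit, with 92.7, 117 and 190.5 CPM as lowest, median and highest in cold, against 122, 177 and 204 CPM in ctrl. Its log2 fold change of -0.46 ± 0.16 (edgeR adjusted p = 0.0389) was the lowest of the 46. The distal arm gene was Ndufb8 (chr19:44548572-44555440, minus strand), often used as a protein marker of assembled complex I, with 457, 540 and 748 CPM in cold, against 592, 713 and 852 CPM in ctrl (-0.34 ± 0.11; edgeR adjusted p = 0.0291). In both genes cold 4 was the highest cold library and lay inside the ctrl range. No subunit rose by edgeR (0 of 36 at an unadjusted p under 0.05, and 0 by DESeq2 and by limma-voom), and the highest subunit value was 0.12, that of Ndufc2.

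Just outside the threshold lay Ndufv1, given above, Ndufa10 and Ndufa13. Ndufa10, of the proximal arm, averaged 648 ± 71.3 CPM in cold and 735 ± 47.9 CPM in ctrl (log2 fold change -0.18, edgeR adjusted p = 0.112). Ndufa13, also known as Grim19, averaged 181 ± 59.0 CPM in cold and 243 ± 52.9 CPM in ctrl (-0.43, edgeR adjusted p = 0.140). The value of Ndufa13 was close to that of Ndufa7, and its SE of 0.21 was larger than the 0.16 of Ndufa7.

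Ndufa4 is now assigned to complex IV rather than complex I, and Ndufa4l2 is its paralogue and a known target of hypoxia-inducible factor. Ndufa4 had 439, 512 and 812 CPM as lowest, median and highest in cold, against 521, 623 and 782 CPM in ctrl (log2 fold change -0.19, edgeR adjusted p = 0.326). Ndufa4l2 (chr10:127514967-127517154, plus strand) had 6.65, 7.89 and 8.62 CPM in cold, against 7.84, 9.81 and 11.3 CPM in ctrl (-0.32 ± 0.11; edgeR adjusted p = 0.0341). The ctrl 14 library, at 7.84 CPM, was the ctrl library inside the cold range. Cold 4 did not stand apart in Ndufa4l2, at 8.14 CPM.

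**Figure D3:**
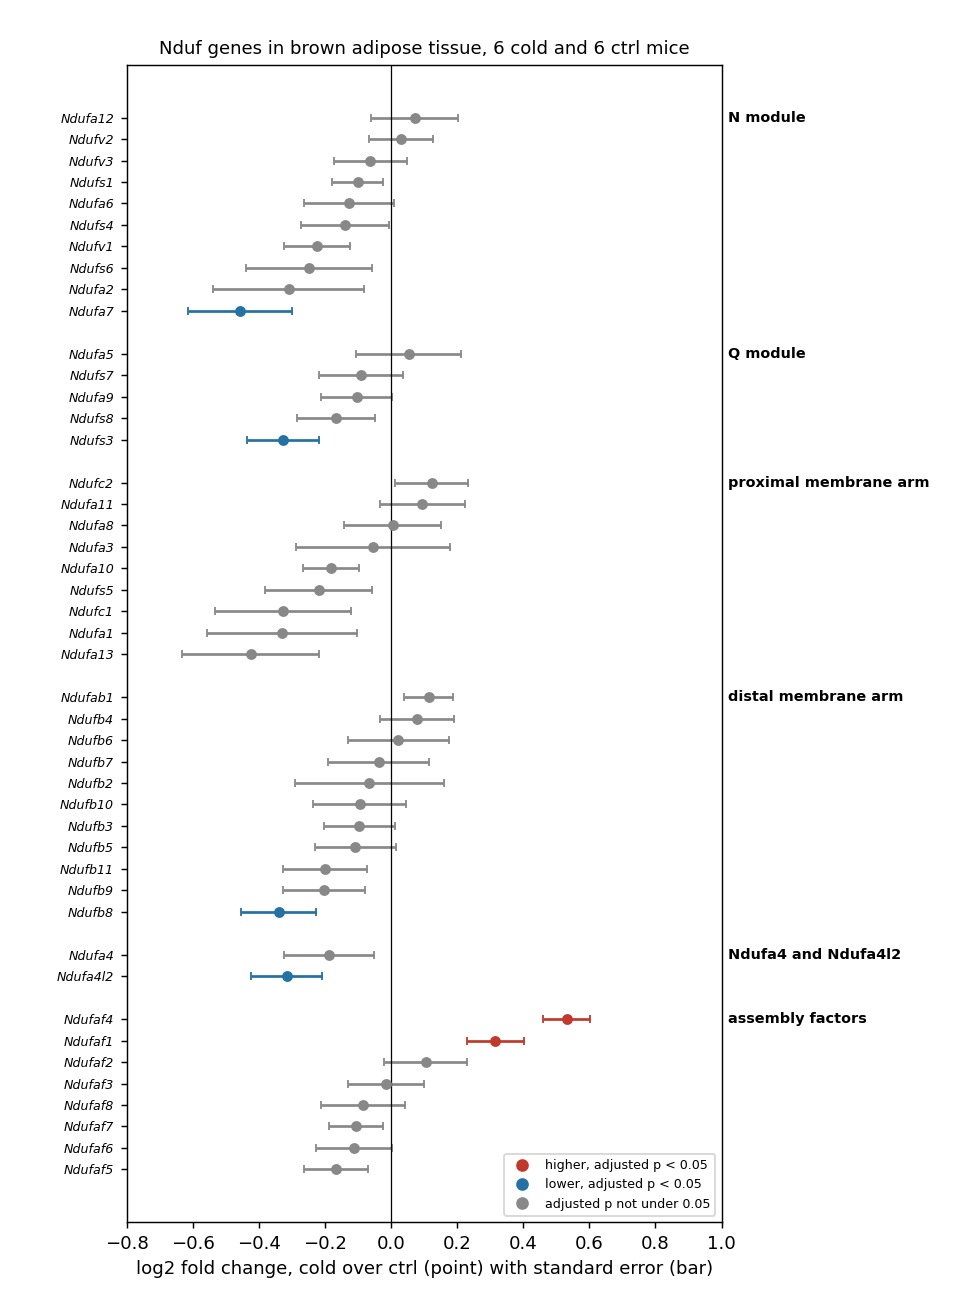
Log2 fold change, cold over ctrl, of Nduf genes (point) with its SE (bar), grouped by module, red for genes called higher, blue for genes called lower and grey for the rest. Ndufaf4 at 0.53 and Ndufaf1 at 0.32 stand farthest right, and most genes lie left of 0.

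Whether the falls passed the threshold depended on which libraries entered. Cold 4 had the highest summed CPM of the 36 subunits, 14059, against 8706 to 10059 in the other 5 cold libraries and 9766 to 13238 in ctrl. Its subunits averaged 0.38 above the ctrl mean on the log2 scale, whereas the other cold libraries lay between -0.40 and -0.14. Ctrl 2, 5 and 6 lay between 0.09 and 0.27, and ctrl 9, 10 and 14 between -0.29 and -0.06. Low mouse numbers thus had higher subunit levels than high ones in each group, though cold 7 at -0.14 was close to cold 11 at -0.17. The cold over ctrl ratio of the summed subunits was 0.970 in numbers 2 to 7 and 0.911 in numbers 9 to 16. The labels name no batch, and what the mouse numbers stand for was not tested.

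Without cold 4, 18 of the 46 genes were called lower and the same number higher, 2, against 2481 lower and 2605 higher of 14035 genes tested. The 18 included 16 subunits, with Ndufa7 at -0.61, Ndufa13 at -0.61, Ndufs3 at -0.42 and Ndufv1 at -0.31, and 35 of 36 subunits were below 0 with a median of -0.23. Without cold 7, cold 12, cold 15, ctrl 2, ctrl 5 or ctrl 6 no gene was called lower. Without cold 11 or cold 16 the count was 1, without ctrl 10 it was 3, without ctrl 9 it was 4 and without ctrl 14 it was 5. The log2 fold changes of Ndufs3, Ndufb8, Ndufa7 and Ndufa4l2 kept their sign as each of the 12 libraries was left out in turn. Ndufs3 ran from -0.42 to -0.27 with an adjusted p of at most 0.0745 (edgeR), and Ndufb8 from -0.44 to -0.28 with at most 0.0690 (edgeR). Ndufa7 ran from -0.61 to -0.38 with an adjusted p of at most 0.0823 (edgeR), and Ndufa4l2 from -0.37 to -0.27 with at most 0.0793 (edgeR). With library totals, and with the muscle marker level as a covariate, 0 were called lower, and the subunit median was then -0.02 and -0.06. None of the 15 muscle markers was itself called (edgeR; 0 at an unadjusted p under 0.05, and 0 by DESeq2 and by limma-voom). By DESeq2 2 were higher at an unadjusted p under 0.05. The log2 fold change was above 0 for 14 of the 15, with a median of 1.19, or 0.30 without cold 15. Their sums spread widely within cold (240 to 6414 CPM), with a median of 1043 CPM in cold and 1054 CPM in ctrl. The absence of calls does not show equal muscle content.

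Markers of other cell types, and of brown adipocytes, also differed between the groups, where 16.2% of all genes tested were called higher and 15.4% lower. Of 8 brown adipocyte markers 4 rose, Elovl3 at a log2 fold change of 2.36, Kcnk3 at 0.69, Cidea at 0.48 and Otop1 at 0.22. Ppara (0.23), Ucp1 (0.22), Adrb3 (0.06) and Prdm16 (0.05) were not called. The median of the 8 was 0.23, and their summed level was 14140 to 17298 CPM in cold and 9293 to 15031 CPM in ctrl. Of 5 fibroblast markers 3 fell, Col3a1 at -0.88, Lum at -0.68 and Col1a1 at -0.51. Pdgfra (0.23) and Dcn (0.02) lay above 0 and were not called. The fibroblast list summed to 161 to 233 CPM in cold and 206 to 354 CPM in ctrl. Of 5 endothelial markers Pecam1 and Vwf rose (0.36 and 0.37) and Tek fell (-0.54), with sums of 615 to 823 CPM in cold and 582 to 801 CPM in ctrl. Of 5 macrophage markers Cd68 rose (0.77), with sums of 35.5 to 52.5 CPM in cold and 28.4 to 54.5 CPM in ctrl. Of 4 white adipocyte markers found, Npr3 rose (2.34) and Tcf21 was at 0 in all libraries. The other 2 were not called and had log2 fold changes below 0, the lowest at -1.07. The median of the 3 tested was -0.38. The list summed to 362 to 595 CPM in cold and 75.2 to 239 CPM in ctrl. The part of these cell types in the Nduf differences was not tested.

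Short transcripts moved with the same libraries. In cold 4, subunits under 700 nt averaged 0.52 above the ctrl mean on the log2 scale and those of 1000 nt or more 0.17, while other protein-coding genes under 700 nt averaged 0.38. In ctrl 14, subunits under 700 nt averaged -0.41 and those of 1000 nt or more -0.14, and other genes under 700 nt averaged -0.29. The part of transcript length in the subunit differences was not tested. Group medians differed less: Nduf genes under 700 nt had a median log2 fold change of -0.08 (15 genes) against -0.12 in 223 other protein-coding genes, and those of 1500 nt and over -0.11 (7 genes) against 0.01 in 10433. With effective lengths as an offset the subunit median was -0.17 and the number of subunits called lower stayed at 4.

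**Figure D4:**
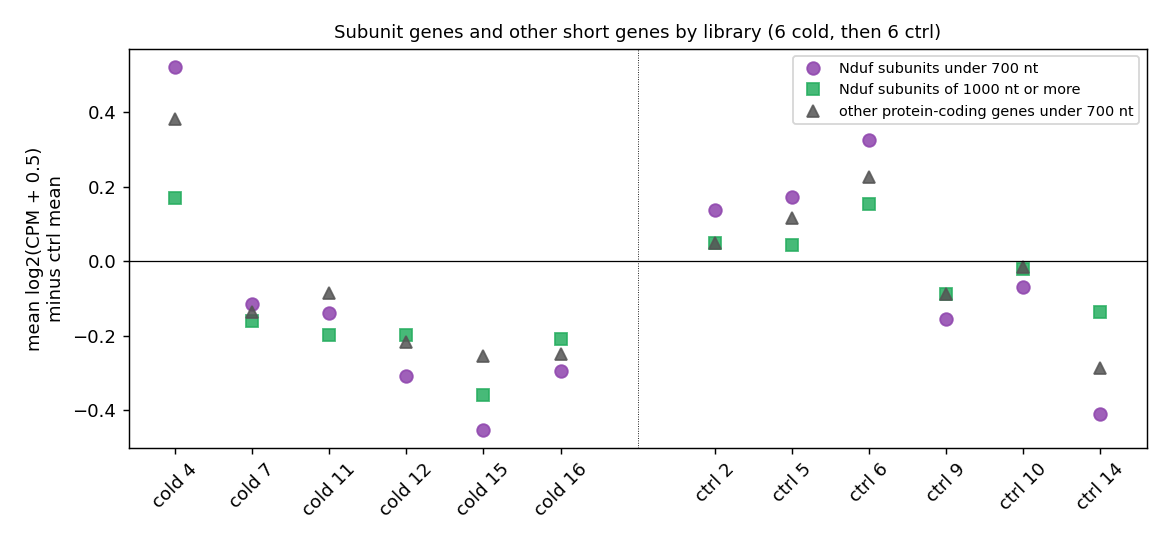
Mean log2(CPM + 0.5) minus the ctrl mean in each library, 6 cold then 6 ctrl, for Nduf subunits under 700 nt (circles), Nduf subunits of 1000 nt or more (squares) and other protein-coding genes under 700 nt (triangles). Cold 4 lies highest in all 3 sets, at 0.52, 0.17 and 0.38, and the other 5 cold libraries lie below 0.

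Transcripts were tested in the same way, and 10.3% of 30345 were called. Of 226 Nduf transcripts in the files 162 were tested, and 7 were called, 6 higher and 1 lower. The most precise was Ndufab1-201, the 3479 nt transcript of the mitochondrial acyl carrier protein, with 145, 167 and 190.5 CPM as lowest, median and highest in cold, against 103, 107 and 111 CPM in ctrl. The groups did not overlap, and the log2 fold change was 0.64 ± 0.07 (edgeR adjusted p = 9.9e-05). Its share of the reads of Ndufab1 was 42.1 ± 4.31% in cold and 29.8 ± 2.22% in ctrl (SD, n = 6 each), while Ndufab1 as a gene was not called at 0.11 (interval -0.03 to 0.26).

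Long transcripts of 2 more subunits were called higher where their genes were not. Ndufb2-205, of 4371 nt, averaged 15.1 ± 1.84 CPM in cold and 8.43 ± 1.85 CPM in ctrl (log2 fold change 0.84 ± 0.15, edgeR adjusted p = 0.00289), a share of 16.4% in cold and 8.84% in ctrl. Ndufa12-201, of 1110 nt, averaged 12.5 ± 1.54 CPM in cold and 7.08 ± 1.71 CPM in ctrl (0.81 ± 0.16, edgeR adjusted p = 0.00726), a share of 5.65% in cold and 3.39% in ctrl. Both are small parts of their gene, and their ranges did not overlap between the groups. The transcript called lower, Ndufv1-206, retains an intron and averaged 0.94 ± 0.30 CPM in cold and 1.90 ± 0.41 CPM in ctrl (-1.01 ± 0.27, edgeR adjusted p = 0.0335).

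Both transcripts that make up most of Ndufaf4 were called higher. Ndufaf4-201, the 3632 nt coding form, averaged 38.4 ± 2.78 CPM in cold and 24.2 ± 2.42 CPM in ctrl (log2 fold change 0.66 ± 0.08, edgeR adjusted p = 2.7e-04), and Ndufaf4-202, of 2358 nt and annotated as a processed transcript without a coding sequence, averaged 52.9 ± 8.63 CPM in cold and 37.8 ± 4.40 CPM in ctrl (0.49 ± 0.12, edgeR adjusted p = 0.0207). Their shares of the gene were 41.04% and 55.8% in cold, against 37.9% and 58.8% in ctrl, so the rise was seen in the coding and the noncoding form. For Ndufaf1 the called transcript was Ndufaf1-202, at 32.2 ± 9.81 CPM in cold and 12.9 ± 3.53 CPM in ctrl (1.32 ± 0.25, edgeR adjusted p = 0.00496). The similar form Ndufaf1-201, 1451 nt against 1478 nt, was listed at 0 in 5 of 6 cold libraries and in ctrl 2, and at 21.2 CPM in cold 4 and 9.00 to 17.97 CPM in the other ctrl libraries. How reads were split between these forms is uncertain, and the gene sum is the safer value.

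Of 37 Nduf genes tested for transcript usage 1 was called, Ndufb5, against 1.45% of 7233 genes (edgeR diffSpliceDGE). Ndufb5, of the distal arm, had an adjusted p of 0.0359 by that gene test. The 1079 nt form Ndufb5-204 took 55.4 ± 3.34% of the gene's reads in cold and 42.4 ± 4.95% in ctrl (SD, n = 6 each). The shorter forms took less: Ndufb5-203, of 625 nt, 35.6 ± 1.90% in cold and 43.1 ± 4.29% in ctrl, and Ndufb5-202, of 574 nt, 7.06 ± 2.44% in cold and 12.8 ± 2.85% in ctrl. The gene itself averaged 230.2 ± 38.2 CPM in cold and 248 ± 42.98 CPM in ctrl and was not called (-0.11). With Simes in place of the gene test Ndufb5 was not called, and leaving out 1 library gave 0 to 7 called Nduf genes, 7 of them without cold 4.

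In 27 Nduf genes with at least 2 coding transcripts tested, the longest one had the larger log2 fold change than the most abundant other one in 20 (74.1%), against 2698 of 4911 other genes (54.9%). The median difference was 0.31 in Nduf genes and 0.07 in the others, which were not matched to them for transcript length or level. Examples were Ndufb2, Ndufa12 and Ndufab1, whose long forms are given above. Ndufaf1 was among the 20 too, although the split of reads between its forms is uncertain. Exceptions included Ndufaf8, Ndufb6 and Ndufa3, where the other form had the larger value. Ndufa4 is counted among the 20. Its other form, Ndufa4-201, was read mainly in ctrl 2 and ctrl 6, at 102 and 109.7 CPM. This sets the value of that form far to the left.

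**Figure D5:**
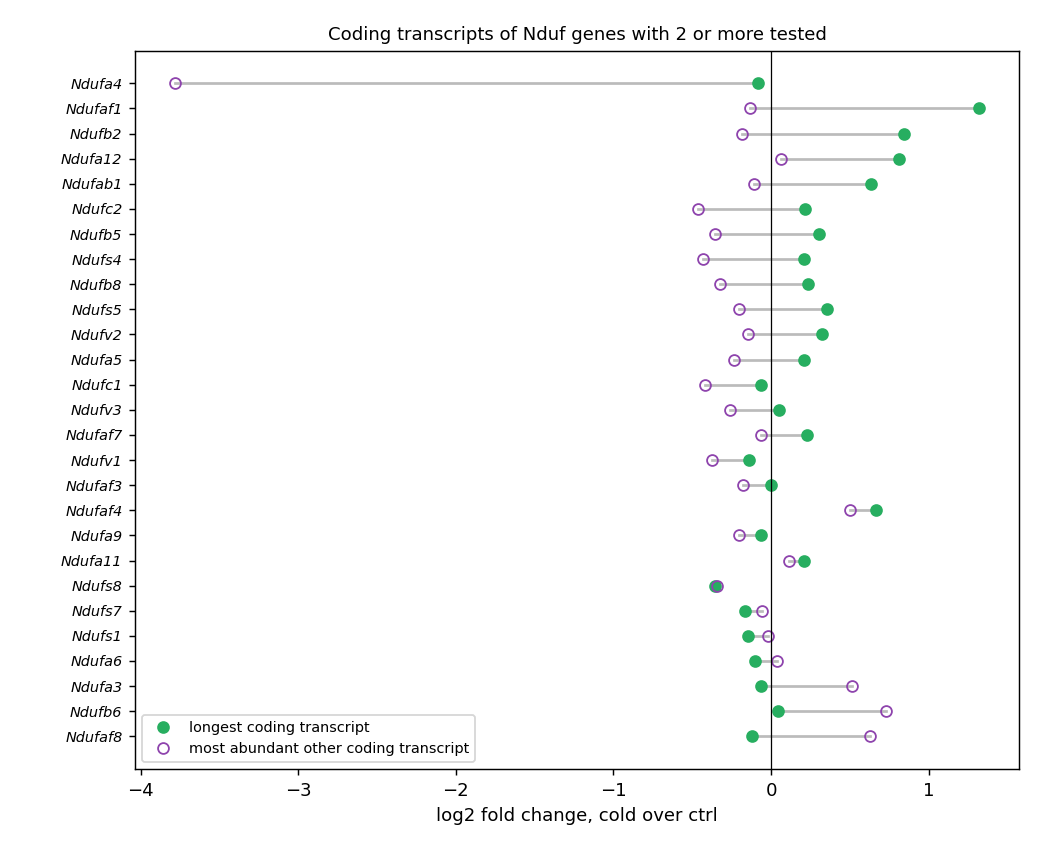
Log2 fold change, cold over ctrl, of the longest coding transcript (filled) and of the most abundant other coding transcript (open) of 27 Nduf genes. The filled point lies to the right of the open one in 20 of 27 genes.

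The other factors known to build complex I, a list of 11 of which 10 were found and tested, had 3 called higher and 1 lower. Of all genes tested, 16.2% were called higher and 15.4% lower. Tmem186 averaged 66.9 ± 6.85 CPM in cold and 50.9 ± 3.53 CPM in ctrl (SD, n = 6 each; log2 fold change 0.39 ± 0.08, edgeR adjusted p = 0.00108). Tmem126a, a factor for the distal membrane arm, averaged 31.5 ± 3.30 CPM in cold and 26.1 ± 2.45 CPM in ctrl (0.27 ± 0.09, edgeR adjusted p = 0.0248), and Timmdc1, which works with Ndufaf1, averaged 53.9 ± 6.56 CPM in cold and 45.2 ± 3.15 CPM in ctrl (0.25 ± 0.08, edgeR adjusted p = 0.0278). Timmdc1 was not called without ctrl 2, ctrl 9, ctrl 10 or cold 11, and Tmem126a was not called without ctrl 9, ctrl 10 or cold 12, with adjusted p up to 0.0621 and 0.0611 (edgeR). Ecsit, Acad9 and Tmem126b, also named above as partners of Ndufaf1, had log2 fold changes of 0.13, 0.09 and 0.19 and were not called. The gene that fell was Nubpl, which delivers iron-sulfur clusters to the complex, at 6.84 ± 1.19 CPM in cold and 11.0 ± 1.66 CPM in ctrl (-0.69 ± 0.13, edgeR adjusted p = 9.4e-04), with no overlap between the groups.

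The 7 complex I genes of mitochondrial DNA all had log2 fold changes below 0, and 3 of them fell, beside 15.4% of all genes tested. The groups did not overlap for these 3, beside 16.3% of all genes tested. mt-Nd4, a proton-pumping subunit, averaged 11245 ± 1516 CPM in cold and 16395 ± 2757 CPM in ctrl (SD, n = 6 each; log2 fold change -0.54 ± 0.11, edgeR adjusted p = 0.0017). mt-Nd4l averaged 1396 ± 303 CPM in cold and 2122 ± 349 CPM in ctrl (-0.60 ± 0.15, edgeR adjusted p = 0.00653), and mt-Nd6, the one encoded on the other strand, averaged 625 ± 109 CPM in cold and 1009 ± 101 CPM in ctrl (-0.69 ± 0.11, edgeR adjusted p = 1.9e-04). The annotated mt-Nd4l and mt-Nd4 overlap on the same strand, so reads near their shared ends cannot be assigned with certainty. The annotated mt-Nd5 and mt-Nd6 overlap on opposite strands, which strand-specific reads can tell apart where the quantification used the strand. With effective lengths as an offset mt-Nd4l was not called (-0.43, edgeR adjusted p = 0.151).

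Other carriers of electrons to ubiquinone, 12 genes, had 2 called higher and 2 lower, beside 16.2% and 15.4% of all genes tested. Prodh, proline dehydrogenase, averaged 37.97 ± 8.08 CPM in cold and 18.6 ± 2.67 CPM in ctrl (SD, n = 6 each; log2 fold change 1.03 ± 0.13, edgeR adjusted p = 2.5e-05), and Etfdh, which passes on electrons from fatty acid oxidation, averaged 959 ± 38.8 CPM in cold and 786 ± 75.7 CPM in ctrl (0.29 ± 0.08, edgeR adjusted p = 0.00985). Chdh, choline dehydrogenase, averaged 44.97 ± 9.23 CPM in cold and 105 ± 15.2 CPM in ctrl (-1.23 ± 0.13, edgeR adjusted p = 5.5e-06), and Sqor, sulfide:quinone oxidoreductase, averaged 21.1 ± 1.63 CPM in cold and 43.6 ± 3.03 CPM in ctrl (-1.05 ± 0.08, edgeR adjusted p = 6.3e-08). The groups did not overlap for 5 of the 12 genes and for 0 of the 36 subunits of complex I, beside the 16.3% of all genes given above.

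Nuclear subunits of complexes III, IV and V gave counts near those of complex I, beside 16.2% higher and 15.4% lower of all genes tested. Of 35 tested, 4 fell and none rose by edgeR (1 higher at an unadjusted p under 0.05, 1 by DESeq2, 0 by limma-voom), with a median log2 fold change of -0.16, against 4 of 36 and -0.11 for the subunits of complex I. The 4 were Atp5j at -0.32, Cyc1 at -0.28, Atp5c1 at -0.27 and Uqcrc1 at -0.27, and of 25 alternatives Cyc1 was not called in 14 and Uqcrc1 in 13. Without cold 4 17 of 35 were called lower, beside 16 of 36 for complex I, and with library totals 0 in either set. The lower values in cold were thus not shown to be particular to complex I.

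Of 5 further Nduf symbols that M21 does not annotate as protein-coding, Ndufb1-ps averaged 33.99 ± 11.7 CPM in cold and 45.99 ± 16.2 CPM in ctrl (SD, n = 6 each) and was not called (log2 fold change -0.44, edgeR adjusted p = 0.253). Ndufb4c was not called at -0.07. Ndufab1-ps, Ndufs6b and Ndufa11b had too few reads to be tested.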

How the data were processed

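Each deposited file holds 1 animal's Salmon output, with estimated counts per transcript (not normalised) and TPM, per the file headers. Salmon, cutadapt, bcl2fastq and GRCm38 are listed in the submitters' processing notes; their versions and the annotation are not given in the sources used here. The deposited TPM served only to check libraries: in ctrl 2, 55.2% of it fell on transcripts whose effective length was below 50 nt, and in the other libraries 2.36% to 8.41%.

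Of 140658 transcripts 140137 were matched by identifier without version to GENCODE M21 (GRCm38), and the 521 others held 0.0866% to 0.152% of reads. The deposited estimated counts, 29.5% to 32.6% of which were not whole, were summed to genes and rounded. A minimum count of 10 (filterByExpr) selected genes, TMM set the scaling, and edgeR's quasi-likelihood test (two-sided, robust fit) gave p-values that were adjusted by the Benjamini-Hochberg method. The biological coefficient of variation was 20.6%. CPM are scaled by TMM, and intervals are 95% intervals from the fitted SE. Transcripts were tested in the same way and usage with diffSpliceDGE. No library was a copy of another in its group (least chi-square per degree of freedom between libraries of a group 13.8). Pairs across groups were not compared. Ctrl 2 differed most from its group, at 204 to 312 against the other ctrl libraries. The largest value among the remaining pairs was 114, for cold 4 with cold 15.

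Named are the nuclear core subunits, Ndufa4, Ndufa4l2, the Ndufaf genes, called genes, the highest and lowest gene per length, the 3 genes next to the threshold and called members of the other lists. One item is not reported here by name, in text or figures, but stays in the counts and medians. Ndufab1, Ndufc2 and other genes outside the rule were chosen after seeing their values. The members and lists were chosen with earlier results of these data known. Scripts were tested on simulated counts. Alternatives were RLE factors, library totals, DESeq2, limma-voom, no filter, a filter of mean 2 CPM, an effective length offset, mitochondrial genes removed, a muscle marker covariate, ctrl 2 and cold 15 left out together, and each library left out. The split by mouse number and the sum of Ndufb4 with Ndufb4c were added after seeing the data. R 4.3.3, edgeR 4.0.16, limma 3.58.1, DESeq2 1.42.0, Python 3.11.15, NumPy 2.4.6, pandas 2.3.3 and matplotlib 3.10.9 were used.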

Additional observations from a re-analysis of the deposited data

Results flagged for a closer look

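Gaps to the next library were examined in 48 groups of values, each item taken once in cold and once in ctrl. In 11 groups, all of them cold, cold 4 stood apart from the other 5 libraries by a gap above Dixon's 95% critical value. Chance flags about 1 group in 20 where groups are independent. These groups were not independent, since the genes share libraries and the sums hold some of the same genes. The flagged values were all highest in the cold group. They were Ndufa4 at 812 CPM with the next cold library at 544, Ndufa7 at 190.5 with the next at 125, Ndufaf3 at 39.7 with the next at 28.1 and Ndufb5 at 304 with the next at 238. Ndufs3 stood at 307 with the next at 227, Ndufs7 at 386 with the next at 244, Ndufs8 at 333 with the next at 226, Ndufv1 at 918 with the next at 686 and Ndufv2 at 562 with the next at 430.0. The summed CPM were 14059 for the 36 subunits, with the next at 10059, and 355 for the 8 assembly factors, with the next at 294. Cold 4 also had the most reads, 31.4 M, and the shortest mean transcript length weighted by reads, 2561 nt against 2893 to 2989 nt in the other cold libraries and 2628 to 3029 nt in ctrl. Their part in the flagged values was not tested.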

How the results depend on the processing

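No paired analysis was possible because cold and ctrl share no mouse number. The count of Nduf genes called lower was 5, and 0 with library totals, with the muscle covariate, without both ctrl 2 and cold 15 and in mouse numbers 2 to 7 only, and 2 with no filter. Leaving out 1 library gave 0 to 18. The count called higher was 2 and stayed at 2 when any 1 library was left out, and was 1 in mouse numbers 2 to 7 only and 1 in 9 to 16 only. Transcripts called numbered 7, and 6 to 20 with 1 library left out. Genes called for usage numbered 1, and 0 with Simes and 0 to 7 with 1 library left out. Signs changed for genes near 0. Ndufaf3 was at 0.075 with library totals, 0.043 with the muscle covariate, 0.074 without both ctrl 2 and cold 15, 0.019 with the mouse number split as a term, 0.12 in numbers 2 to 7, and -0.14 to 0.039 with 1 library left out. Ndufaf8 was at 0.0058 with library totals, 0.0097 without both libraries and 0.017 in numbers 9 to 16. Ndufs7 was at 0.051 in numbers 2 to 7, Ndufv2 ran from -0.048 to 0.064 with 1 library left out, and Ndufb4 was at -0.019 with Ndufb4c reads added. The cause of these changes was not tested. Of 23 alternatives, Ndufaf4 and Ndufaf1 were called in 23, Ndufa4l2 in 13, Ndufb8 and Ndufs3 in 12 and Ndufa7 in 9.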
